A study of Rattus norvegicus with 6 samples.

Results

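Potassium channel subunit genes were examined in the left ventricle of diabetic and non-diabetic male rats. A gene was included if its name on the array followed the Kcn pattern of channel genes (Kcn, a family letter or letters and a number), or if it was Abcc8 or Abcc9, the sulfonylurea receptors that complete the ATP-sensitive channel. This gave 93 genes with 127 probes on 136 spots, out of 26456 gene names, 30367 probes and 42877 non-control spots. The names alone chose the genes, and no measured value entered the choice. RNA came from 3 OLETF rats, a strain labelled as having type 2 diabetes, aged 27, 28 and 27 weeks, and from 3 LETO rats, the labelled healthy control strain, aged 27, 28 and 28 weeks. No drug, diet or allele is given for either group. Every OLETF rat is of the strain labelled diabetic and every LETO rat of the healthy strain, so strain and diabetes cannot be told apart. Each rat's RNA was hybridised to 1 single-colour Agilent array. Below, a signal is the log2 of the spot intensity minus the 75th percentile of its array, so that 0 lies at that percentile and 1 unit is a 2-fold step. A difference is always OLETF minus LETO, given with its standard error (SE).

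Potassium channels carry the outward current that ends the cardiac action potential and hold the resting membrane near the potassium equilibrium. In rodent ventricle, fast repolarisation rests mainly on the transient outward current of Kv4 pore subunits (Kcnd2, Kcnd3) with the accessory protein KChIP2 (Kcnip2), and on delayed rectifiers of the Kv1 and Kv2 families. The resting potential rests mainly on inward rectifiers such as Kcnj2 and Kcnj12. The ATP-sensitive channel, built from Kcnj8 or Kcnj11 with Abcc8 or Abcc9, opens when cellular ATP falls. In rodents Kcnd2 is known to be expressed in a gradient across the ventricular wall, and the homeobox factor Irx5 is known to repress it in the inner layers.

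Each array value stands for hybridisation to a probe of 60 bases. The probes of 6 genes on which the results turn are shown 5′ to 3′ in the sense of the transcript, as listed in the scanner files, with rn4 positions from the same files. No base is marked. Each can be read without a stop codon in at least 1 frame. The Kcnip2 probe crosses an intron, so its genomic span is longer than the probe.
Kcnd2, chr4:48046217-48046276, plus strand: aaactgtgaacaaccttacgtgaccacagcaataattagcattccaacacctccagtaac
Kcnip2, chr1:251011241-251011585, minus strand: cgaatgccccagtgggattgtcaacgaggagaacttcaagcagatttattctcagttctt
Kcne1, chr11:32344803-32344862, minus strand: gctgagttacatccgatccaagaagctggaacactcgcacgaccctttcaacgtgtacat
Kcnj2, chr10:100576110-100576169, plus strand: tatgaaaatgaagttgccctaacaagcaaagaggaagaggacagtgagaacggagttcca
Kcna5, chr4:162896330-162896389, minus strand: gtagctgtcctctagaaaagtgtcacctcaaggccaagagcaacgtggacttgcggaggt
Kcnh3, dimmer of 2 probes, chr7:137999604-137999663, plus strand: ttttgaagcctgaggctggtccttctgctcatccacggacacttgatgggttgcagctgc

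Of the 93 genes, 55 were well above background on all 6 arrays, the scanner software's flag for a spot clearly brighter than its surroundings. The 5 genes that mark cardiac potassium channels (Kcnd2, Kcnip2, Kcnj2, Kcnj11 and Kcnq1) were all among them. Another 22 genes were above background on no array. These included several channels known from neurons (Kcna1, Kcnc1, Kcnb2, Kcnj6), from glia and kidney (Kcnj10, Kcnj16), and Kcna3, the delayed rectifier of T lymphocytes. A further probe described as Kcna3, under a name outside the Kcn pattern, was above background on all 6 arrays, at signals from -5.53 to -4.97, so the Kcna3 call holds for the probe named Kcna3 only. No gene was above background on all arrays of 1 strain and on none of the other. Kcnn4 passed on 3 LETO and 2 OLETF arrays, whereas Kcnh6, Kcnmb1 and Kcnq3 passed on 2 LETO and 3 OLETF arrays. Kcnh5, Kcnj1, Kcnk1, Kcnt1 and Kcnt2 passed on 1 or 2 LETO arrays and no OLETF array, and Kcnk4 passed on 1 OLETF array only. The remaining 6 genes (Kcnab3, Kcnc2, Kcne1l, Kcne3, Kcnf1 and Kcnn2) passed on some arrays of each strain. A gene below background has only an upper bound here, and its absence is not shown.

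**Figure D1:**
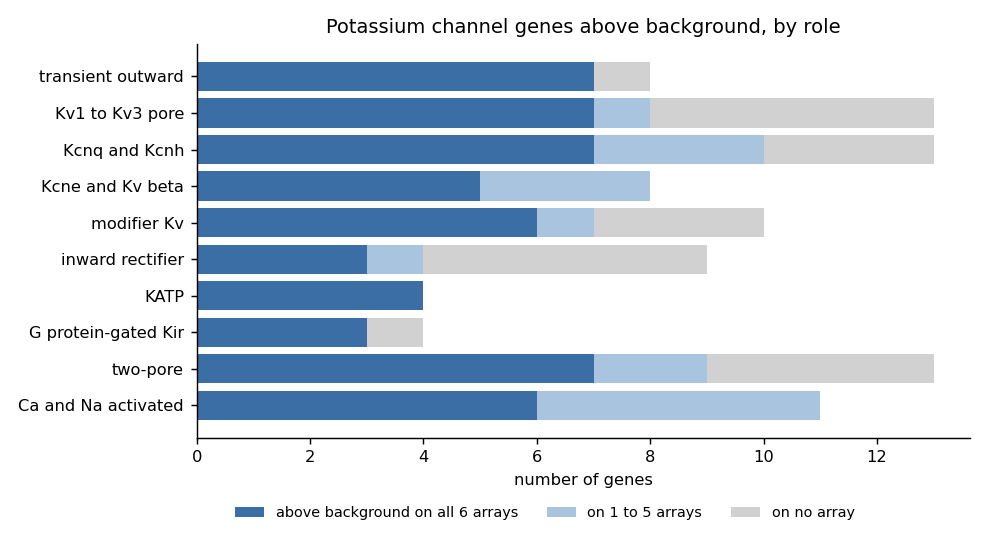
Bars give the number of potassium channel genes (x axis) in each role group (y axis), split by whether any probe of the gene was well above background on all 6 arrays, on 1 to 5 or on none. All 4 genes of the ATP-sensitive channel were above background on every array, against 3 of 9 inward rectifiers.

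A gene was tested if it passed on every array of LETO, of OLETF or of both, which 59 genes did, within a fit of 18816 genes. None passed an adjusted p of 0.05 in either direction, where 2.39% of all genes tested did (1.39% higher and 0.999% lower in OLETF; limma with Benjamini-Hochberg adjustment). At an unadjusted p under 0.05 there were 3 potassium channel genes, or 5.08% of the 59, beside 12.1% of all genes tested. These were Kcnmb2, Kcna5 and Kcne2. Each gene was read through its brightest tested probe. On these probes the LETO and OLETF arrays did not overlap for 3 genes, Kcnmb2, Kcna5 and Kcnj5, all lower in OLETF. This is again 5.08% beside 17.4% of all genes (9.1% higher and 8.27% lower in OLETF). Neither share exceeded its background. OLETF 2 and 3 were on a slide without LETO arrays, so the fit with the slide as a block compares OLETF 1 alone with the 3 LETO arrays. In it none was called, beside 0.505% of all genes, and each blocked value below rests on that 1 OLETF rat. The difference was above 0 for 24 genes and below 0 for 35, with a median of -0.03, beside -0.004 over all genes tested. The 95% interval lay within 1 log2 unit of 0 for 50 of the 59 genes. The samples set the precision, with SEs from 0.083 to 0.743 and a median of 0.147, beside 0.118 over all genes.

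**Figure D2:**
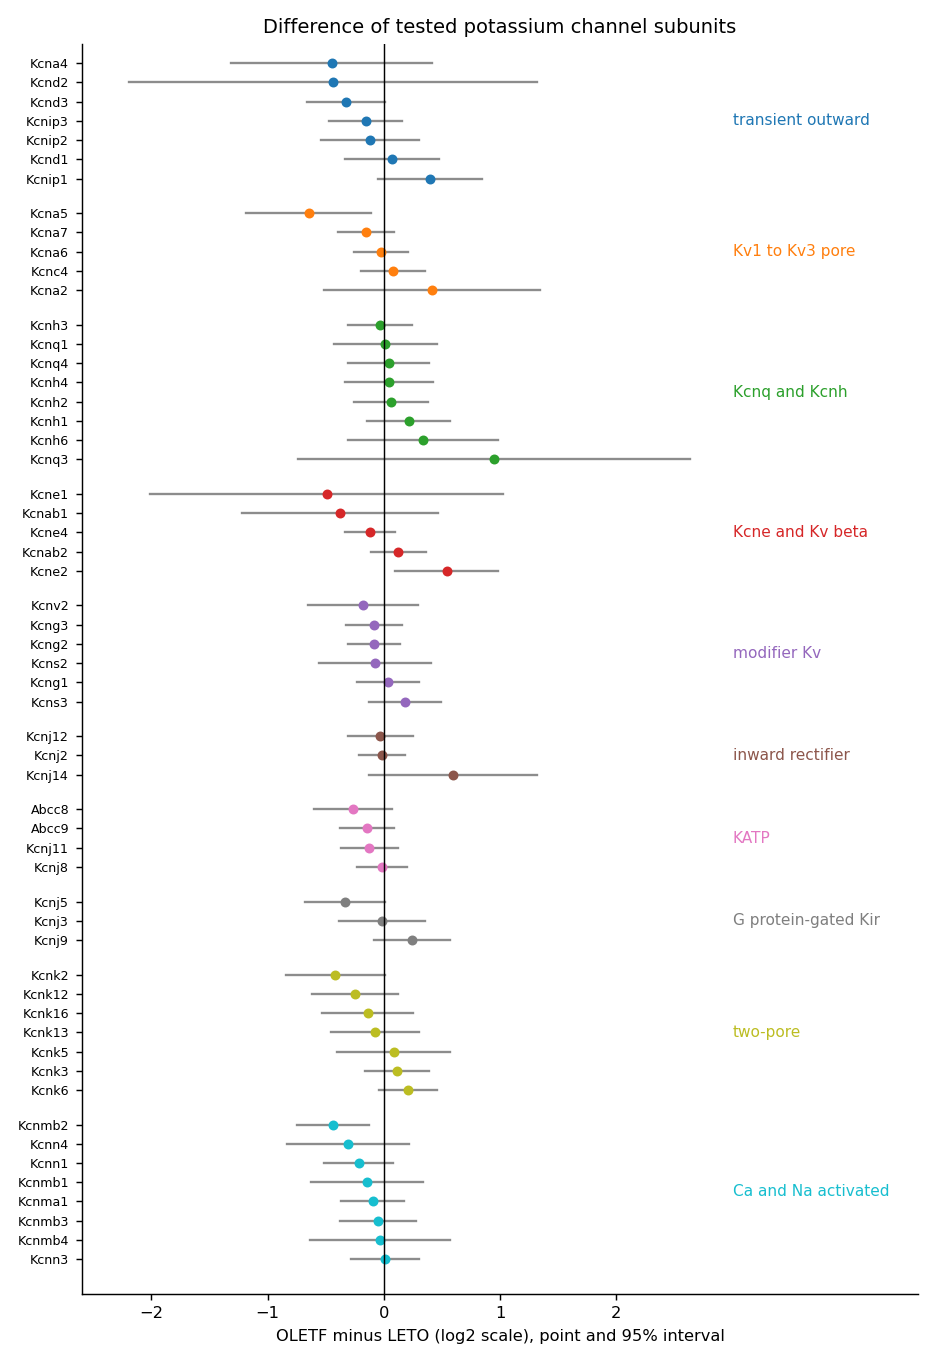
Each point is the OLETF minus LETO difference on the log2 scale (x axis) of 1 gene (y axis, 56 tested genes grouped by role), and each line is its 95% interval from the fit over all genes. Kcnmb2, Kcna5 and Kcne2 have intervals that leave out 0 before adjustment, and Kcnd2, Kcne1 and Kcnq3 have the widest lines.

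The transient outward group was measured through 7 of its 8 genes, and none was called. Kcnd2, its main pore subunit in rodent ventricle, had signals of -1.70, 0.88 and 0.25 in LETO 1 to 3 and of 0.42, -1.63 and -0.68 in OLETF 1 to 3. The strains overlapped fully, and the low arrays were LETO 1 and OLETF 2. The difference of -0.44 had an SE of 0.74 (adjusted p = 0.940), and its interval ran from -2.20 to 1.32. Kcnip2, which brings Kv4 channels to the surface and slows their inactivation, measured 0.53, 0.87 and 0.82 in LETO, against 0.98, 0.35 and 0.53 in OLETF. Again LETO 1 and OLETF 2 were the lowest array of their strain, and the difference was -0.12 (SE 0.18, adjusted p = 0.932). OLETF 1, the only OLETF array on the slide of the LETO arrays, lay above the LETO mean by 0.61 for Kcnd2 and by 0.24 for Kcnip2.

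Kcnd3, the other Kv4 pore subunit of the ventricle, measured -3.18, -2.96 and -2.70 in LETO, against -3.25, -3.15 and -3.41 in OLETF. The groups overlapped by 1 array each, LETO 1 and OLETF 2, and the difference was -0.32 (SE 0.14, adjusted p = 0.438). Kcna4, the pore of the slow transient outward current, differed by -0.45 with an SE of 0.37, LETO 3 standing above the rest at -1.91. Kcnip1, an accessory protein better known from brain, had a positive difference of 0.40 (SE 0.19, adjusted p = 0.488) at signals between -6.39 and -5.54, close to the dimmest detectable signal of these arrays (between -6.90 and -6.20). Kcnip4 was above background on no array.

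**Figure D3:**
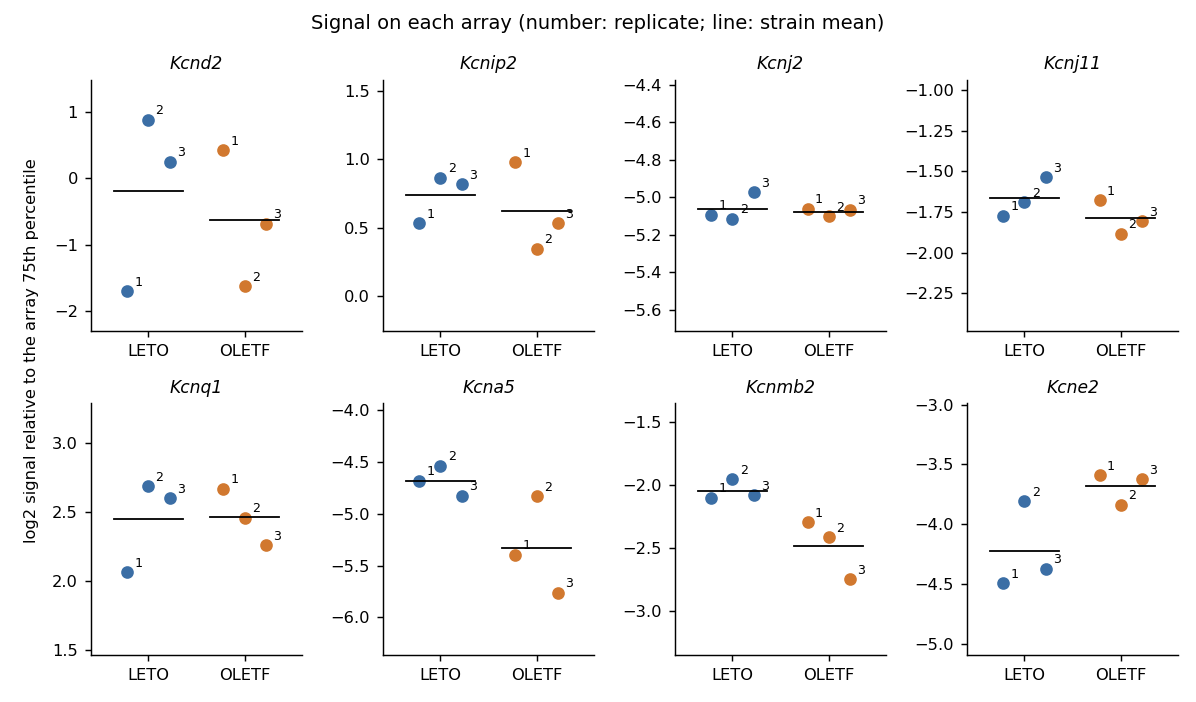
Points are single arrays (number: replicate within strain), lines are strain means, and the y axis is the log2 signal relative to the array's 75th percentile, with a separate range in each panel. The strains overlap for the 5 marker genes and for Kcne2, and do not overlap for Kcna5 and Kcnmb2.

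Among the delayed rectifiers of the Kv1 to Kv3 families, 7 of 13 genes were tested and none was called. Kcna5, the pore of the ultrarapid current, measured -4.68, -4.53 and -4.83 in LETO, against -5.39, -4.83 and -5.76 in OLETF. Every OLETF array lay below every LETO array, though OLETF 2 and LETO 3 were nearly equal. The difference of -0.65 corresponds to a 1.57-fold lower signal, with an SE of 0.23 (adjusted p = 0.293). Kcna2, Kcna6 and Kcna7 differed by 0.41, -0.02 and -0.15, each with an adjusted p above 0.6. A dimmer Kcna6 probe differed by -0.27 (SE 0.08, adjusted p = 0.199 over all probes tested, limma). It measured -4.90, -4.84 and -4.94 in LETO, against -5.13, -5.13 and -5.24 in OLETF, without overlap. The dimmer Kcna7 probe differed by 0.09 (SE 0.20).

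The Kcnq and Kcnh group makes the slow and rapid delayed rectifiers and related currents, and 9 of its 13 genes were tested, with none called. Kcnq1, the slow delayed rectifier pore, measured 2.07, 2.68 and 2.60 in LETO, against 2.67, 2.46 and 2.26 in OLETF. The strains overlapped and differed by 0.01 (SE 0.19, adjusted p = 0.995). Its 95% interval ran from -0.43 to 0.45. Kcnh2, the rapid delayed rectifier pore, differed by 0.06 (SE 0.14). Kcnq3, chosen after its values were seen, had a difference of 0.95 through a single array, and it entered the fit only through OLETF, where it was higher. OLETF 3 measured -3.39, while the other 5 arrays lay between -6.42 and -5.79, and the SE was 0.71. The other Kcnq3 probe did not have this high array. It was above background on 2 LETO arrays and no OLETF array, so it was not tested.

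Kcnh3, an ether-a-go-go-like channel known mainly from forebrain, was measured by 2 probes that differed from each other. The brighter probe represented the gene in the fit and had -0.89, -1.04 and -0.89 in LETO, against -1.14, -0.77 and -1.02 in OLETF, a difference of -0.04 (SE 0.12, adjusted p = 0.971). The dimmer probe, whose sequence is printed above, had -5.84, -6.12 and -5.83 in LETO, against -4.79, -4.78 and -4.83 in OLETF. All 3 OLETF arrays stood above all 3 LETO arrays. The difference was 1.13 (SE 0.11), with an adjusted p of 0.00321 over 21484 probes tested, of which 514, or 2.39%, were called. No other probe of a potassium channel gene passed that threshold. With normexp background correction the difference of this probe was 0.37 (adjusted p = 0.05004), and with the slide as a block it was 1.13 (adjusted p = 0.0661). Its LETO signals lie within 1 unit of the dimmest detectable signal. The probe was singled out after its value was seen, and which transcripts each probe reads was not tested.

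**Figure D4:**
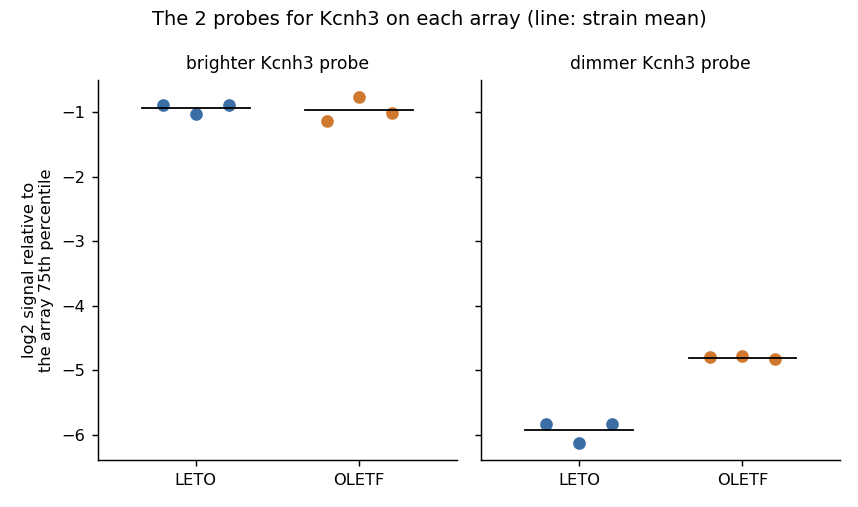
Points are single arrays and lines are strain means for the brighter and the dimmer Kcnh3 probe, as log2 signal relative to the array's 75th percentile. The brighter probe lies between -1.14 and -0.77 in both strains, and the dimmer probe lies near -5.93 in LETO and near -4.80 in OLETF.

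Of the 8 accessory subunits of the Kcne and Kv beta families 5 were tested. Kcne2, a small partner of Kcnh2 and Kcnq1 channels, measured -4.49, -3.81 and -4.37 in LETO, against -3.59, -3.84 and -3.63 in OLETF. The groups overlapped by LETO 2 and OLETF 2 only, and the difference was 0.54, or 1.45-fold, with an SE of 0.19 (adjusted p = 0.280). Kcne1, the partner that slows Kcnq1 into the slow delayed rectifier, measured -0.19, -2.75 and -1.41 in LETO, against -2.59, -1.20 and -2.03 in OLETF. The spread within each strain exceeded the difference of -0.49 (SE 0.64). Kcne4 and Kcnab1 differed by -0.12 and -0.38. Of the modifier subunits, which form channels only together with other Kv subunits, 6 of 10 were tested, and Kcng2, Kcns3, Kcnv2 and Kcng1 differed by -0.08, 0.18, -0.18 and 0.04. A dimmer Kcng1 probe, above background on 3 LETO and 1 OLETF arrays, differed by -0.66. It passed the filter only through LETO, where it was higher, so the filter favoured this sign.

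Kcnd2 and Kcne1 were among 9 potassium channel genes whose spread within strains exceeded the 95th percentile of all genes tested. Kcnd2 lay at the 99.6th percentile and Kcne1 at the 99.5th. Their arrays ran in opposite order within each strain. From highest to lowest Kcnd2 the LETO arrays ran 2, 3, 1 and the OLETF arrays 1, 3, 2, and the same orders ran from lowest to highest Kcne1. A second Kcnd2 probe had the same order of arrays, with -2.95, -0.48 and -1.11 in LETO, against -0.92, -3.09 and -1.91 in OLETF. The highest and lowest arrays were 2.59 log2 units apart for the first probe, and 2.61 apart for the second. The spread thus lay within each strain, and the 2 strains covered much the same range. How many of all genes tested share either order of arrays was not counted.

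Irx5 and Irx3, homeobox factors known for graded expression across the ventricular wall, followed the order of Kcne1. Irx5 measured 2.02, -2.65 and -0.003 in LETO, against -1.28, 1.28 and 0.93 in OLETF. Irx3 measured -1.88, -6.24 and -3.37 in LETO, against -4.75, -2.39 and -2.91 in OLETF. Both were thus highest on the arrays with the lowest Kcnd2 signal, LETO 1 and OLETF 2, and their strain differences were 0.52 (SE 1.19) and 0.48 (SE 1.11). Hcn4, the pacemaker channel of conduction tissue, measured 1.17, -1.77 and -0.41 in LETO, against -1.37, 0.81 and -0.64 in OLETF, also high where Kcnd2 was low. Sln, sarcolipin, known as an atrial gene, measured -4.57, 1.12 and -0.79 in LETO, against 0.67, -4.57 and -2.32 in OLETF, and so followed Kcnd2. The other 5 tested genes of the 10 atrial and conduction markers did not all share either order. Gja5 had the order of Kcne1 in both strains. It measured -1.33, -1.64 and -1.57 in LETO, against -2.10, -1.31 and -1.38 in OLETF. Myl7, the atrial light chain, measured 2.42, 4.59 and -0.02 in LETO, against 3.27, -1.24 and -1.12 in OLETF, the order of Kcnd2 in OLETF but not in LETO. Myl4, another atrial light chain, lay between 6.39 and 6.61 on every array. Irx5, Irx3 and the markers named here come from lists of channel regulators and of atrial and conduction markers. They were chosen after their values were seen. Which layer or region of the ventricle each sample held is not given in the labels, and its part in these values was not tested. In RNA from whole tissue, fewer cells of a type and less RNA per cell cannot be told apart.

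**Figure D5:**
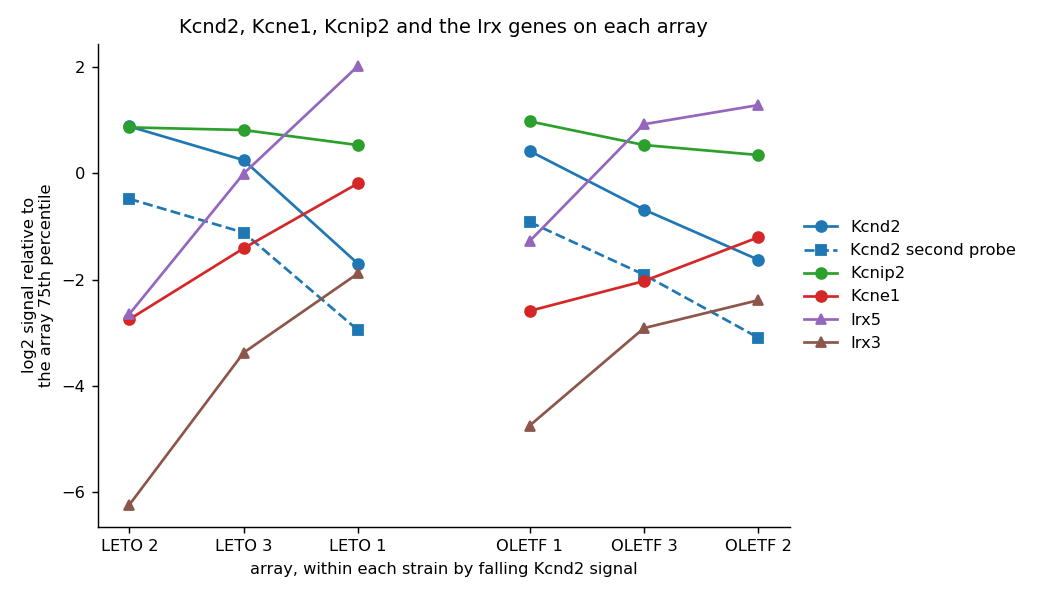
Each line is the log2 signal (y axis, relative to the array's 75th percentile) of 1 probe over the 3 arrays of a strain, which are ordered by falling Kcnd2 signal (x axis). Both Kcnd2 probes fall while Kcne1, Irx5 and Irx3 rise in LETO and in OLETF alike, and Kcnip2 falls slightly.

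Of the inward rectifiers 3 of 9 genes were tested. Kcnj2, a main pore of the classical inward rectifier current, measured -5.09, -5.12 and -4.97 in LETO, against -5.06, -5.10 and -5.07 in OLETF. The arrays nearly coincided, with a difference of -0.02 (SE 0.08, adjusted p = 0.982) and an interval from -0.21 to 0.18. Kcnj12, its partner subunit, differed by -0.03 (SE 0.12). Kcnj14, a further member of the same subfamily, differed by 0.59 (SE 0.31, adjusted p = 0.541), with LETO arrays at -2.25, -2.95 and -1.62 and OLETF arrays at -1.78, -1.75 and -1.51. LETO 3 lay within the OLETF range and LETO 1 and 2 below it.

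All 4 genes of the ATP-sensitive channel were tested, all had negative differences, and none was called. Of all 18816 genes tested, 9644 had negative differences. With the slide as a block Kcnj8 differed by 0.05, Kcnj11 by -0.01, Abcc8 by -0.10 and Abcc9 by -0.12. Kcnj11, a pore subunit of the cardiomyocyte channel, measured -1.77, -1.69 and -1.54 in LETO, against -1.68, -1.88 and -1.81 in OLETF, which overlapped, and differed by -0.12 (SE 0.10, adjusted p = 0.788). Abcc8 differed by -0.27 (SE 0.14, adjusted p = 0.567), from arrays at 1.16, 1.52 and 1.61 in LETO, against 1.33, 1.08 and 1.08 in OLETF. Kcnj8 and Abcc9, the pair known from vascular smooth muscle and pericytes, differed by -0.02 (SE 0.09) and -0.14 (SE 0.10). The 2 other Abcc9 probes differed by -0.23 (SE 0.09) and -0.41 (SE 0.14), also below 0. The strains did not overlap on either, and neither was called (adjusted p over all probes tested 0.359 and 0.265, limma). Among the 7 pericyte markers the median difference was 0.04 and only Higd1b was called, at 0.77 (adjusted p = 0.00925, or 0.174 with the slide as a block). Among the smooth muscle markers 6 of 8 were tested, 5 of them were below 0 with a median of -0.63, and none was called. At an unadjusted p under 0.05 there were 3, all lower in OLETF, or 50%, beside 12.1% of all genes (limma). The log2 summed signal of the 6 tested markers ranged from 3.78 to 3.91 in LETO and from 3.63 to 3.89 in OLETF. Higd1b was named after its value was seen. The part of these cells in the values of Kcnj8, Abcc9 and Kcnma1 was not tested.

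The G protein-gated inward rectifiers carry the muscarinic current and are best known from atrium. Kcnj5 measured 1.35, 1.57 and 1.50 in LETO, against 1.32, 1.24 and 0.84 in OLETF. No array overlapped, but the gap between LETO 1 and OLETF 1 was small, and the difference was -0.34 (SE 0.15, adjusted p = 0.426). Its other probe differed by -0.30. Kcnj3, with which it forms the channel, differed by -0.02 (SE 0.16), and Kcnj9 by 0.24 (SE 0.14). Of the 10 atrial and conduction markers 7 were tested, all 7 below 0 with a median of -0.26 and none called, and Myl7 differed by -2.02 (SE 1.51). Their log2 summed signal was 6.66 to 6.94 in LETO and 6.46 to 6.68 in OLETF. Most of that sum was Myl4, which alone measured 6.53 to 6.57 in LETO and 6.39 to 6.61 in OLETF. The part of atrial or conduction tissue in the Kcnj5 value was not tested.

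Tandem-pore K2P channels carry background potassium current, and 7 of 13 were tested without a call. Kcnk2, the stretch-activated TREK channel, measured 0.58, 0.96 and 1.26 in LETO, against 0.61, 0.34 and 0.60 in OLETF. LETO 1 lay within the OLETF range, and LETO 2 and 3 lay above it. The difference was -0.42 (SE 0.18, adjusted p = 0.421), and the other 2 probes of the gene gave -0.36 and -0.31. Kcnk3, the acid-sensitive TASK channel, differed by 0.12 (SE 0.12), Kcnk6 by 0.21 (SE 0.11, adjusted p = 0.534) and Kcnk5 by 0.08 (SE 0.20).

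Of the calcium- and sodium-activated channels 8 of 11 were tested, and 7 of these differences were below 0. Kcnmb2, a beta subunit that inactivates the large-conductance channel, had the smallest adjusted p of all potassium channel genes, 0.198. It measured -2.10, -1.96 and -2.09 in LETO, against -2.30, -2.41 and -2.75 in OLETF, with no overlap, and differed by -0.44 (SE 0.13), or 1.36-fold. Its other probe gave -0.35 (SE 0.17). With the slide as a block the Kcnmb2 difference was -0.25 (adjusted p = 0.965). Kcnma1, the pore of that channel, had strain means of -0.64 ± 0.02 in LETO, against -0.74 ± 0.19 in OLETF (SD, n = 3) and differed by -0.10 (SE 0.11). Kcnmb4 and Kcnn3 differed by -0.03 and 0.01. Kcnn2, a small-conductance channel of cardiomyocytes, was above background on 2 LETO arrays and 1 OLETF array and was not tested. Kcnn4, known with Kcna3 as a channel of T lymphocytes and chosen after its values were seen, differed by -0.31 (SE 0.22). It entered the fit only through LETO, where it was higher, so the filter favoured this sign. Of the lymphocyte markers 5 of 8 were tested, all 5 below 0. At an unadjusted p under 0.05 there were 3, or 60%, beside 12.1% of all genes (limma). Among these Cd8a entered the fit only through LETO, where it was higher. Cd3g, named after its value was seen, was called at -0.95 (adjusted p = 0.0190), beside 2.39% of all genes called. With the slide as a block Cd3g differed by -0.72. Whether lymphocytes account for the Kcnn4 value was not tested.

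A list of 60 proteins that bind, move, modify or transcribe potassium channels was read beside the channels. Of these 53 were tested, 27 above and 26 below 0, with a median of 0.000, and none was called beside 2.39% of all genes. At an unadjusted p under 0.05 there were 7, or 13.2%, 5 higher and 2 lower, beside 12.1% of all genes. The 4 with the smallest p were Tbx5, Cttn, Camk2d and Hopx. Tbx5, a cardiac T-box factor, measured -4.23, -4.47 and -4.54 in LETO, against -3.85, -4.05 and -4.05 in OLETF, without overlap, and differed by 0.43 (SE 0.12, adjusted p = 0.146). Cttn, cortactin, which links channels to actin, differed by 0.25 (SE 0.08, adjusted p = 0.221). Camk2d, the calmodulin-dependent kinase of cardiomyocytes, which phosphorylates Kv channels, measured -1.74, -0.88 and -1.23 in LETO, against -1.85, -1.95 and -1.89 in OLETF. It differed by -0.62 (SE 0.20, adjusted p = 0.250), and by -0.84 to -0.31 over the 20 alternative settings. The value of -0.84 came without LETO 1, its lowest LETO array (adjusted p = 0.0299). Leaving out the LETO array nearest to OLETF was bound to widen the difference. Hopx, a homeodomain-only cofactor, differed by -0.76 (SE 0.26, adjusted p = 0.287). Dpp6 and Dpp10, accessory proteins of Kv4 channels, were above background on no array.

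All 10 ventricular cardiomyocyte markers were above background and tested, none was called, and 9 were below 0 with a median of -0.08. Their log2 summed signal was 10.34 to 10.49 in LETO, against 10.26 to 10.52 in OLETF. Between 75.5% and 79.8% of spots were well above background per array. All LETO arrays and OLETF 1 shared a slide, and OLETF 2 and 3 shared another. The number of arrays limits the precision, since 3 against 3 cannot go below p = 0.10 in an exact permutation test of a single value. The labels name 3 independent experiments per strain.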

How the data were processed

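Left ventricular RNA of 3 OLETF and 3 LETO rats was hybridised, labelled with Cy3, to Agilent Rat GE 4x44K v3 arrays. Array numbers follow the sample titles, and the source names of LETO 1 and 2 both read replicate 1. Scanner output was made with Feature Extraction, version 10.7.3.1 per the file headers but 9.1 in the submitters' processing notes. The deposited processed intensity is already background-subtracted, per the file headers. The deposited value table, used as an alternative, holds each intensity as a linear ratio to about the 75th percentile of its own array (column medians from 0.154 to 0.163).

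Outlier-flagged and control spots were left out. Log2 intensity was reduced by the 75th percentile over non-control spots, and spots of a probe were averaged. A probe was tested if well above background on all 3 arrays of a strain, and the brightest such probe stood for its gene name. Differences were tested with limma 3.58.1 (lmFit, eBayes) in R 4.3.3 with Benjamini-Hochberg adjustment over 18816 genes at 0.05. The fit was also run on simulated data with independent noise for each gene. Those data had no slide effect and no dim probes, so they cannot show how the fit handles either. Tables and figures used data.table (version 1.17.8), Python 3.11.15, pandas 2.3.3, numpy 2.4.6 and matplotlib 3.10.9. Positions are rn4, and 120 of 127 probes matched a RefSeq entry by accession, used for names only.

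Named genes are the 5 markers, the 10 smallest p, up to 4 of the brightest per role group, 16 well known ventricular members, and the 4 regulators with the smallest p. Any other gene given with a difference is marked where it appears. Some items that the rule takes or the counts include are not reported here. The genes and lists were chosen with earlier results of these data known. The effect of the alternatives is given at the end.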

Additional observations from a re-analysis of the deposited data

How the results depend on the processing

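Over 20 alternative settings, 1 of them (the 75th percentile over probes) chosen after seeing the data, the median difference of the 55 to 93 genes tested in each ranged from -0.09 to 0.006. The number of potassium channel genes called higher in OLETF was 0 except for 1 with the mean of all probes and 1 with every probe on its own (both Kcnh3), 1 with array weights, and 0 to 1 when single arrays were left out (1 without LETO 1). With array weights 4 were called lower (Abcc8, Kcnd3, Kcnk2 and Kcnmb2), and 2 regulators were called higher (Tbx5 and Cttn) and 2 lower (Camk2d and Rest). Those weights ranged from 0.211 for LETO 1 to 3.05 for LETO 3, and 1757 of 18816 genes were called with them. Regulators called lower numbered 0 to 1 without single arrays. Among the marker genes, signs reversed for Kcnj2 with normexp (0.079) and for Kcnq1 with the mean of probes (-0.014) and array weights (-0.21). With the slide as a block they reversed for Kcnd2 (0.61) and Kcnip2 (0.24). Without single arrays the difference ranged from -1.19 to 0.10 for Kcnd2, -0.30 to 0.019 for Kcnip2, -0.043 to 0.027 for Kcnj2 and -0.18 to 0.13 for Kcnq1. The cause was not tested. With the replicate number as a replicate block, no potassium channel gene was called and 272 genes were called in all. The correlations of same-numbered arrays were -0.09, -0.14 and -0.01. These values show no pairing of the rats by number, but 3 arrays per strain cannot exclude one. Over all genes, 450 were called, 95 with the slide as a block, 228 with no filter on dim probes, and 190 to 567 when single arrays were left out. Dim probes near the background limit what could be seen for the 34 untested genes.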

Other observations

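Probe descriptions under names outside the Kcn pattern were searched for voltage-gated, calcium-activated and A-type modulatory potassium channel phrases. This gave 8 probes, among them further probes for Kcnd3 and Kcna3 and an entry named Kchip2. The further Kcnd3 probes differed by -0.007, -0.08 and -0.26, beside -0.32 for the Kcnd3 probe in the fit. The search held no phrase for inward rectifiers, two-pore channels or sulfonylurea receptors. The Kchip2 probe measured -3.62, -3.36 and -3.50 in LETO and -3.28, -3.76 and -3.83 in OLETF, with LETO 1 and OLETF 3 lowest in their strains. These probes were chosen after their values were seen and were not part of the counts.

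A single array set the value of a Kcnj1 probe, chosen after it was seen. The third Kcnj1 probe measured -2.98 on LETO 1 and between -8.56 and -7.82 on the other 5 arrays, and the other 2 Kcnj1 probes were above background on no array.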
